A study of Mus musculus with 6 samples.

Results

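Cadherins and protocadherins other than *Cdh1* were followed in the dorsal midbrain of mouse embryos at embryonic day 10.5, on 3 *Ezh2* cko and 3 control arrays. The members are the genes whose symbol is Cdh with a number or starts with Pcdh, taken from probe sets that the platform's annotation ties to a single symbol. They are 55 of 18193 genes on the array, covered by 100 of 45037 probe sets, and comprise 20 cadherins, 12 non-clustered protocadherins and 23 clustered protocadherins. The choice used no measured values. Each gene is given by its probe set with the highest mean signal over the 6 arrays.

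The *Ezh2* cko embryos carried Wnt1-Cre and 2 copies of a floxed allele of *Ezh2*, the methyltransferase of the Polycomb repressive complex, from which Cre removes the catalytic SET domain. Controls were littermates that carried the floxed allele as well, either without Cre or with Cre and a wild-type second copy. The labels call every control WT, on a C57BL/6 background, and do not tell these genotypes apart. According to the methods, each group came from 2 litters, and no source assigns an array to a litter. Wnt1-Cre is active in the dorsal neural tube and also in neural crest, and recombination in the midbrain was described as complete caudally and partial rostrally, so the dissected tissue could hold cells that kept the enzyme. The probe set of *Ezh2* itself read 11.79, 11.74 and 11.72 in *Ezh2* cko samples, against 11.69, 11.76 and 11.66 in controls. Where its probes lie relative to the deleted part is not given in the sources used here, so this value does not check the labels.

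Cadherins are membrane proteins that hold cells together through calcium-dependent contacts. Classical cadherins bind their own kind on the neighbouring cell and are linked to actin through catenins, and the combination a neuroepithelial cell carries helps to keep brain regions and cell groups apart. Delta protocadherins adhere more weakly and act in cell movement and axon growth, whereas clustered protocadherins are produced from tandem arrays of genes in combinations that give single neurons a surface identity. Polycomb repression, which places methyl groups on histone H3 at CG-dense promoters, is known to cover many developmental genes.

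All values are log2 signals after RMA, and a difference is the mean of the *Ezh2* cko arrays minus the mean of the control arrays, with its standard error from limma. Such signals depend on the probes, so each probe set was compared only with itself. Unless stated otherwise, adjusted p-values are limma's, with Benjamini-Hochberg adjustment over all probe sets. Control 1 stood apart from the other 5 arrays. *Xist*, the transcript of the inactive X chromosome, read 11.70 on control 1 and between 5.13 and 5.36 on the others, and the Y-linked *Eif2s3y* read 3.69 on control 1 while the other arrays were at 8.83 or above. The labels give no sex. By these transcripts control 1 read as female and the other 5 arrays as male, so sex was not balanced between the groups. Control 1 also had the lowest median deviation of neuron markers, at -0.45. For members inside the rule for naming, differences are therefore also given without control 1 where that changes a direction. They are also given for each member with the largest difference. For the other members the differences without control 1 are not given.

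None of the 55 members passed an adjusted p of 0.05, a threshold that 0.302% of all genes passed. The smallest adjusted p among the members was 0.308, for *Pcdh19*. None passed the threshold of the methods, a difference of at least 0.81 log2 units with an unadjusted p of at most 0.01, which 0.407% of genes passed. Without adjustment, p was under 0.05 for 4 members with higher signals in *Ezh2* cko tissue, beside 6.12% of all genes, and for 2 with lower signals, beside 2.75%. Together they are 10.9% of the members, where 8.87% of all genes had such a p. The differences spanned -0.29 to 0.32 with a median of 0.01, where the median of all genes was -0.02, and 30 members (54.5%) were above 0, beside 43% of all genes. Of the 19 members whose mean signal was above the median of all probe sets, 14 were above 0 and 5 below with a median of 0.10, where the 12024 genes above that level had a median of -0.01 and 5498 of them were above 0. These counts and medians include control 1 and were not taken without it. Leaving control 1 out turned *Cdh5* (-0.0027), *Pcdh8* (-0.04) and *Pcdh18* (-0.02) below 0, whereas *Cdh6* and *Cdh15* stayed below. The lean of the brighter members therefore depends in part on 1 control array.

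The intervals bound how large the members' differences could have been on this scale. The 95% interval of every one of the 55 differences lay within 0.81 log2 units of 0, the fold threshold of the methods, which also held for 97.8% of all genes. The bound farthest from 0 belonged to *Cdh6* and corresponded to 1.51-fold. These intervals are not adjusted for the number of genes. Signals near the floor of the array understate a change in transcript level, and only 19 members (34.5%) had a mean signal above 5.70, the median of all probe sets, where 66.1% of all genes did. None of the 23 clustered protocadherins was among them, so for those genes the narrow intervals apply to dim signals.

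**Figure D1:**
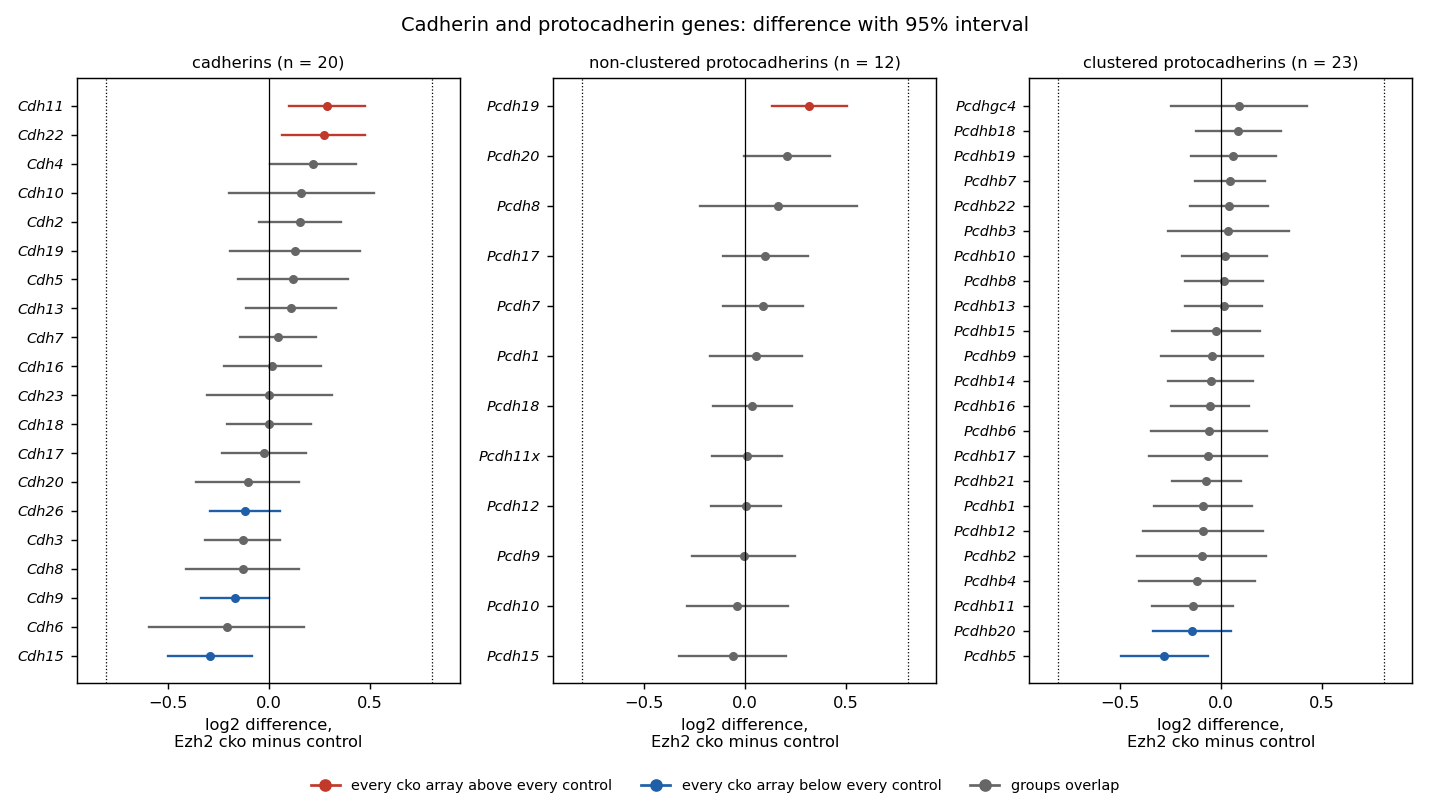
Difference of each of the 55 members on the log2 scale, *Ezh2* cko minus control, with its 95% interval from limma, in 3 panels by class. Dotted lines mark 0.81 log2 units either way. Colours mark members whose 3 *Ezh2* cko arrays all lay above (red) or below (blue) all 3 control arrays, and no interval reaches a dotted line.

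All 3 *Ezh2* cko arrays lay above all 3 controls for *Pcdh19*, *Cdh11* and *Cdh22*, 5.45% of members beside 7.52% of all genes. They lay below all controls for *Cdh15*, *Pcdhb5*, *Cdh9*, *Pcdhb20* and *Cdh26*, 9.09% of members beside 7.88% of all genes. Both shares are close to those of the whole array. *Cdh26* was named after its values were seen, because it completes this count.

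**Figure D2:**
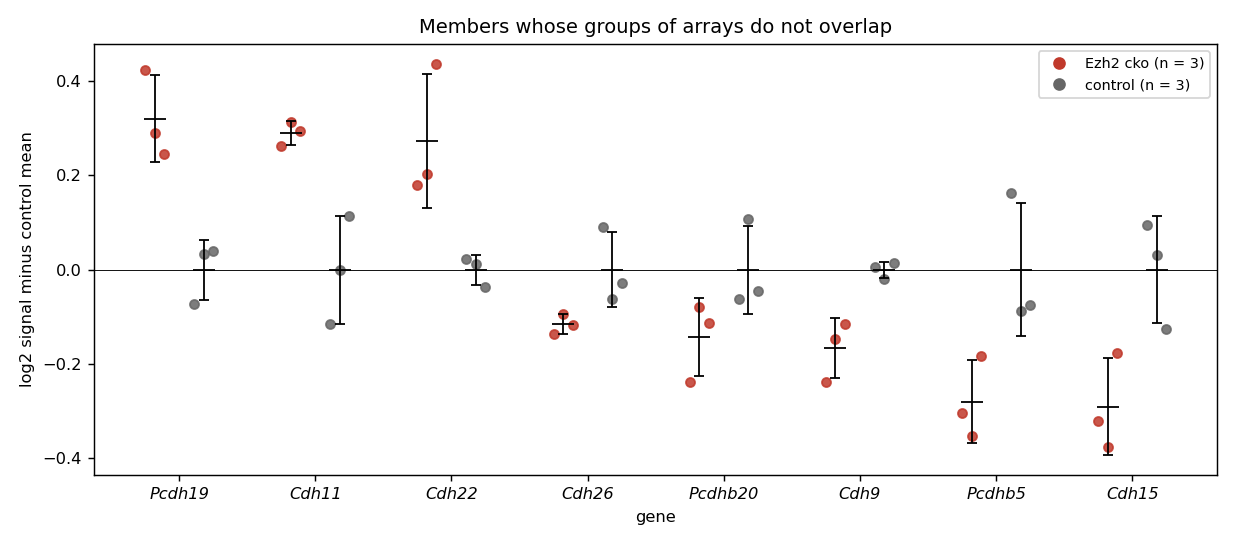
Log2 signal of the 8 members whose groups do not overlap, each set to its control mean, with points for single arrays and black bars for mean and SD (n = 3 each). *Pcdh19*, *Cdh11* and *Cdh22* lie 0.27 to 0.32 above their control means, and the other 5 members lie 0.11 to 0.29 below.

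*Pcdh19*, a delta-2 protocadherin on the X chromosome whose human counterpart is mutated in an epilepsy of girls, had the largest difference. It read 9.19, 9.06 and 9.01 in *Ezh2* cko samples, against 8.69, 8.80 and 8.81 in controls. The difference was 0.32 ± 0.08 (SE), or 1.25-fold, with a limma adjusted p of 0.308. Its 2 other probe sets were also higher on average, by 0.42 without overlap between the groups and by 0.29 with overlap. When the 3 probe sets were averaged the difference was 0.34, with a limma adjusted p of 0.0848. That adjustment ran over 18193 genes rather than over all probe sets, so it is not on the same scale as 0.308. Without control 1, the array with the high *Xist* signal, the difference was 0.28 and the adjusted p 0.616. The median difference over 618 genes of the X chromosome was -0.01. The other X-linked member, *Pcdh11x*, was at 0.01, but its mean signal was below the median of all probe sets. Neither value tests whether sex had a part in the *Pcdh19* difference, since only control 1 read as female. That part was not tested.

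*Cdh11*, a type II cadherin of mesenchyme and of parts of the neural tube, was bright on every array. It read 11.57, 11.62 and 11.60 in *Ezh2* cko samples, against 11.19, 11.30 and 11.42 in controls. The *Ezh2* cko arrays lay within 0.05 of each other, and the controls spread over 0.23. The difference was 0.29 ± 0.08 (adjusted p = 0.393, limma), and the other probe set gave 0.35 (adjusted p = 0.371), again without overlap. Control 1 was the lowest control on both probe sets, and leaving it out gave 0.23 for the representing probe set. Mesenchyme markers were also higher on average. Of 14 measured, 13 were higher on average in *Ezh2* cko samples, 0 passed the adjusted p, and their mean signal ran from 8.70 to 8.79 in *Ezh2* cko samples and from 8.28 to 8.64 in controls. Their part in the *Cdh11* difference was not tested.

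*Cdh22*, a type II cadherin of brain and endocrine tissue, read 8.59, 8.62 and 8.85 in *Ezh2* cko samples, against 8.44, 8.43 and 8.38 in controls. The groups were close but separate, with *Ezh2* cko 3 well above the rest. The difference was 0.27 ± 0.09 (adjusted p = 0.490), or 0.28 without control 1, and 0.19 when *Ezh2* cko 3 was left out. The gene has a single probe set.

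*Cdh15*, the type I cadherin of skeletal muscle precursors, was the member with the lowest difference. It read 6.32, 6.27 and 6.47 in *Ezh2* cko samples, against 6.74, 6.67 and 6.52 in controls. The groups were separated by only 0.05 at their nearest arrays. The difference was -0.29 ± 0.09 (adjusted p = 0.458), and -0.24 without control 1.

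The starts of *Pcdh19*, *Cdh22* and *Cdh15* are printed for 2 reasons. These 3 had the largest differences among the members whose RefSeq promoter windows were read, a search that left out some members. CG-dense DNA is also where Polycomb complexes are found in mouse cells. Windows run from 250 bases before to 50 bases after the start, on the GRCm38.p6 table, 5′ to 3′ on the gene's strand, with each CG in capitals.
Pcdh19, chrX:133688944-133689243, minus strand: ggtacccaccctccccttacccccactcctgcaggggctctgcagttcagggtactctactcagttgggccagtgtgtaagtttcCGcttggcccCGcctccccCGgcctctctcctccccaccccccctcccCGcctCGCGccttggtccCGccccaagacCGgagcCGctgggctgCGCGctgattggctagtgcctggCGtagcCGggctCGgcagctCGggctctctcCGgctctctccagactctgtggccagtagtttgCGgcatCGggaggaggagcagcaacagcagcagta
Cdh22, chr2:165234688-165234987, minus strand: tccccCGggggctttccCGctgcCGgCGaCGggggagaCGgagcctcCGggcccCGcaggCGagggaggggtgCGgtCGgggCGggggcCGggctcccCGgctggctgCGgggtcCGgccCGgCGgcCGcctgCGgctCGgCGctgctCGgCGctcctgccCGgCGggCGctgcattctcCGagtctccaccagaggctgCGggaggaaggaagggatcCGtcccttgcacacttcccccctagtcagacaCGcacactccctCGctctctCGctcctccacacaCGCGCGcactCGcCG
Cdh15, chr8:122848124-122848423, plus strand: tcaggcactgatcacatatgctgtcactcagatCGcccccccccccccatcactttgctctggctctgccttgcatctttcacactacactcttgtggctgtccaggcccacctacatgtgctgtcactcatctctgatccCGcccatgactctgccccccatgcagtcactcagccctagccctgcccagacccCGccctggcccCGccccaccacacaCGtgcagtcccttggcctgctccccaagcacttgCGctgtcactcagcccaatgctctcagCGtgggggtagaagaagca

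The *Pcdh19* window holds 18 CG, that of *Cdh22* holds 38 and that of *Cdh15* holds 7. Only 4.95% of the 32851 windows in the table have as many CG as *Cdh22*. Members on chromosome 18 were left out of the search, and windows were found for 20 of the 55 members. None of the 20 is a clustered protocadherin. A gene with several windows counts by its highest number. The median was 13 CG, beside 7 over all windows. Of the 20 genes, 5 (25%) hold at least 20 CG, beside 26.5% of all windows. CACCTG or CAGGTG, the same motif read on either strand and known as a binding sequence of the Snail and Zeb repressors of *Cdh1*, lies in 3 of the 20 (15%), beside 20.2% of all windows. Histone marks and factor binding were not measured on these arrays.

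Among the type I cadherins, *Cdh2* encodes N-cadherin, the main classical cadherin of neuroepithelial junctions. It read 12.16, 12.22 and 12.25 in *Ezh2* cko samples, against 12.08, 11.90 and 12.17 in controls. The groups overlapped, and the difference was 0.16 ± 0.09 (adjusted p = 0.756), with an interval of -0.05 to 0.36. Without control 2, the lowest array, it was 0.08. *Cdh4*, which encodes R-cadherin of brain and retina, read 7.42, 7.42 and 7.17 in *Ezh2* cko samples, against 7.07, 7.11 and 7.17 in controls. *Ezh2* cko 3 was level with control 3 and the other 2 were above every control. The difference was 0.22 ± 0.09 (adjusted p = 0.643), and all 3 probe sets of *Cdh4* were higher on average. *Cdh3*, which encodes P-cadherin, was at -0.13 (adjusted p = 0.789). It lies directly beside *Cdh1*, which is not a member and which read 7.85, 7.80 and 7.84 in *Ezh2* cko samples, against 6.91, 7.13 and 7.15 in controls. *Cdh1* rose by 0.77 (adjusted p = 0.0166). Whether the differences of these neighbours were unequal was not tested.

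The 11 type II cadherins measured had a median difference of 0.05, with 7 above 0 and 4 below. *Cdh12* and *Cdh24* are not analysed here. *Cdh5*, which encodes VE-cadherin of endothelial junctions, read 7.86, 7.75 and 7.63 in *Ezh2* cko samples, against 7.38, 7.80 and 7.70 in controls. The groups overlapped, the difference was 0.12 (adjusted p = 0.871), and without control 1 it was close to 0 (-0.0027), whereas without control 2 it was 0.21. The 10 endothelial markers had a median difference of 0.04, and 0 passed the adjusted p.

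*Cdh6*, expressed in neural crest and in bands of the neural tube, varied most among the *Ezh2* cko samples. It read 9.06, 8.66 and 8.33 in *Ezh2* cko samples, against 9.04, 8.80 and 8.84 in controls. *Ezh2* cko 1 lay just above all controls and the other *Ezh2* cko arrays below all of them, and the difference of -0.21 ± 0.17 (adjusted p = 0.837) was -0.03 without *Ezh2* cko 3 and -0.40 without *Ezh2* cko 1. *Cdh9*, a cadherin of synapses and kidney, read 3.60, 3.69 and 3.73 in *Ezh2* cko samples, against 3.85, 3.82 and 3.85 in controls. These signals were below the array's median, and the difference was -0.17 ± 0.07 (adjusted p = 0.671). *Cdh8*, a marker of divisions within the brain, read 3.77, 4.19 and 4.15 in *Ezh2* cko samples, against 4.03, 4.25 and 4.21 in controls. *Ezh2* cko 1 was the low array, and the difference of -0.13 (adjusted p = 0.863) was 0.0039 without it.

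*Cdh26*, a cadherin outside the classical types, read 5.48, 5.52 and 5.50 in *Ezh2* cko samples, against 5.70, 5.55 and 5.59 in controls (difference -0.11, adjusted p = 0.794). With all 6 arrays, the estimates of neighbouring cadherin genes did not share one direction throughout, and whether neighbours differed was not tested. In the gene order of GRCm38.p6, *Cdh8*, *Cdh11* and *Cdh5* follow each other with no protein-coding gene in between and were at -0.13, 0.29 and 0.12, whereas *Cdh6*, *Cdh9* and *Cdh10* likewise adjoin and were at -0.21, -0.17 and 0.16. *Cdh10* read 6.58, 6.29 and 6.50 in *Ezh2* cko samples, against 5.97, 6.62 and 6.30 in controls. The groups overlapped, control 1 was its lowest array, and the *Cdh10* difference without control 1 is not given. *Cdh8* turned to 0.0039 without *Ezh2* cko 1 and *Cdh5* to -0.0027 without control 1, whereas *Cdh11*, *Cdh6* and *Cdh9* kept their directions with each array left out. The 11 cadherins outside the rule for naming ranged from -0.13 (*Cdh3*) to 0.16 (*Cdh10*), with 7 above 0.

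**Figure D3:**
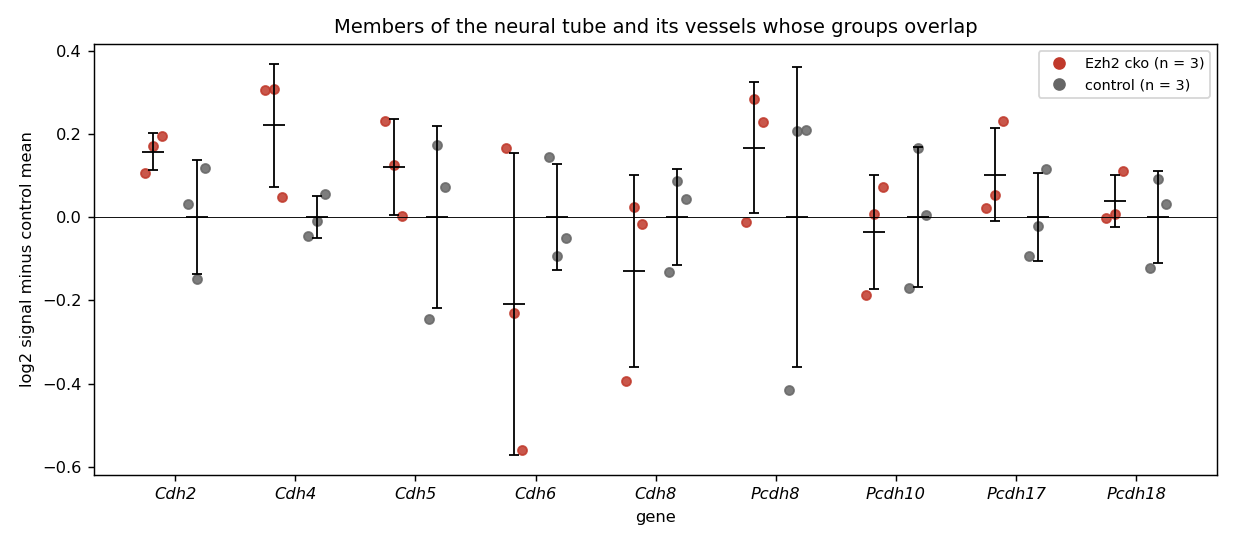
Log2 signal of 9 members named for roles in the neural tube or its vessels and whose groups overlap, each set to its control mean, with points for single arrays and black bars for mean and SD (n = 3 each). The *Ezh2* cko arrays of *Cdh6* and the control arrays of *Pcdh8* spread most.

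The 5 delta-2 protocadherins, whose cytoplasmic tails bind actin regulators, had a median difference of 0.10, and the 4 delta-1 protocadherins one of 0.03. *Pcdh8*, known from paraxial mesoderm and from synapses, read 11.62, 11.92 and 11.86 in *Ezh2* cko samples, against 11.22, 11.84 and 11.84 in controls. Control 1 was the low array here, and the difference of 0.17 ± 0.17 (adjusted p = 0.874) was -0.04 without it. *Pcdh17*, which acts in axon extension, read 6.73, 6.76 and 6.94 in *Ezh2* cko samples, against 6.62, 6.69 and 6.82 in controls (difference 0.10, adjusted p = 0.853). The groups overlapped, and the difference was 0.04 without *Ezh2* cko 3, 0.05 without control 1 and 0.16 without control 3.

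*Pcdh18* read 9.82, 9.83 and 9.93 in *Ezh2* cko samples, against 9.70, 9.92 and 9.85 in controls, a difference of 0.04 (adjusted p = 0.953) that was -0.02 without control 1. *Pcdh10*, which guides axons of the forebrain, read 4.45, 4.64 and 4.71 in *Ezh2* cko samples, against 4.46, 4.80 and 4.64 in controls, a difference of -0.04 (adjusted p = 0.970) that was 0.05 without control 2 and -0.12 without control 1. Its 6 probe sets ran from -0.17 to 0.18 and 2 of them were above 0, so they gave no common direction.

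The delta-1 member *Pcdh7* read 7.26, 6.997 and 7.11 in *Ezh2* cko samples, against 7.07, 7.04 and 6.98 in controls (difference 0.09, adjusted p = 0.866). That difference was 0.02 without *Ezh2* cko 1 and 0.15 without *Ezh2* cko 2. Of the remaining non-clustered genes, *Pcdh20* read 4.76, 4.63 and 4.75 in *Ezh2* cko samples, against 4.37, 4.66 and 4.49 in controls (difference 0.21, adjusted p = 0.674). *Pcdh15*, a component of the tip links of hair cells in the ear, read 4.67, 4.31 and 4.48 in *Ezh2* cko samples, against 4.69, 4.55 and 4.40 in controls (difference -0.06, adjusted p = 0.944). Without control 1 the *Pcdh15* difference was 0.01, and without *Ezh2* cko 2 it was 0.03. In all 3 genes the groups overlapped. The other 4 non-clustered members ranged from -0.01 to 0.06.

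Probe sets of 1 gene did not always move together. Of the 27 members with more than 1 probe set, 14 had all of them on the same side of 0. A second probe set of *Pcdh9*, a delta-1 protocadherin, read 5.11, 5.45 and 5.57 in *Ezh2* cko samples, against 4.72, 4.91 and 5.26 in controls. Its difference was 0.42 (adjusted p = 0.597), while the brighter probe set that represents *Pcdh9* was at -0.01. None of the 100 probe sets passed the adjusted p, beside 0.189% of all probe sets, and the lowest value was 0.303, for the second probe set of *Pcdh19*.

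**Figure D4:**
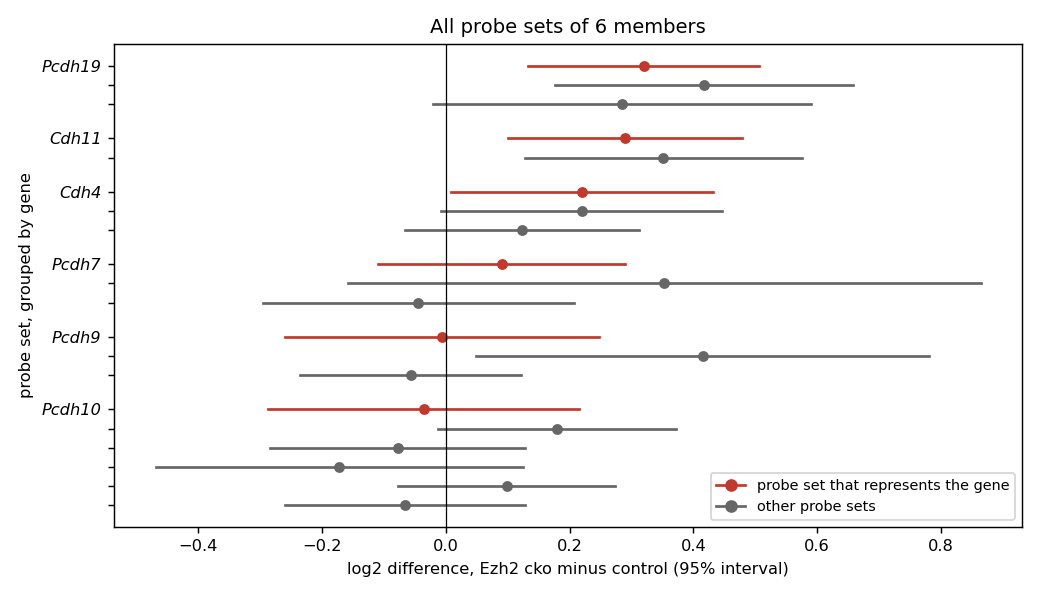
Difference on the log2 scale with its 95% interval for every probe set of 6 members, with the probe set that represents the gene in red and the others in grey. All probe sets of *Pcdh19*, *Cdh11* and *Cdh4* lie above 0, and those of *Pcdh7*, *Pcdh9* and *Pcdh10* fall on both sides.

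The clustered protocadherins were covered by all 22 *Pcdhb* genes and by *Pcdhgc4*, and all were dim. The *Pcdhb* signals lay between 3.18 and 5.38 on every array. Of the 23 genes, 14 were below 0 and 9 above, with a median of -0.05 that was -0.01 without control 1. Related *Pcdhb* genes have similar coding sequences, and whether their probe sets bind each other's transcripts was not tested.

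*Pcdhb5* read 4.85, 4.80 and 4.97 in *Ezh2* cko samples, against 5.31, 5.06 and 5.08 in controls. Its difference was -0.28 ± 0.09 (adjusted p = 0.515), and -0.20 without control 1, its highest array. *Pcdhb20* read 3.80, 3.96 and 3.92 in *Ezh2* cko samples, against 3.97, 4.14 and 3.99 in controls (difference -0.14, adjusted p = 0.765, and -0.09 without control 2). In both genes every *Ezh2* cko array was below every control.

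*Pcdhb11* read 4.21, 4.12 and 4.05 in *Ezh2* cko samples, against 4.30, 4.35 and 4.14 in controls (difference -0.14, adjusted p = 0.783). *Pcdhb4* read 3.53, 3.42 and 3.44 in *Ezh2* cko samples, against 3.65, 3.80 and 3.30 in controls (difference -0.12, adjusted p = 0.881). *Pcdhb2* read 3.77, 4.24 and 4.30 in *Ezh2* cko samples, against 4.13, 4.33 and 4.13 in controls (difference -0.09, adjusted p = 0.924). In these 3 genes the groups overlapped. Single arrays set the values of *Pcdhb4*, at -0.01 without control 2 and -0.26 without control 3, and of *Pcdhb2*, at 0.07 without *Ezh2* cko 1 and -0.19 without *Ezh2* cko 3.

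*Pcdhgc4*, a C-type isoform of the gamma cluster that supports survival of neurons in mice, read 6.03, 5.57 and 5.47 in *Ezh2* cko samples, against 5.50, 5.75 and 5.55 in controls. Its difference of 0.09 (adjusted p = 0.931) rested on *Ezh2* cko 1 and was -0.08 without it. The other 17 clustered members ranged from -0.09 to 0.09. The alpha cluster has no member by this rule, since its 6 probe sets each name 9 or 14 *Pcdha* genes. The one farthest from 0 read 6.14, 6.26 and 6.15 in *Ezh2* cko samples, against 5.37, 5.78 and 6.09 in controls (difference 0.43, adjusted p = 0.569). The other 5 were between -0.0048 and 0.26.

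Genes of the proteins that cadherins work with were read from 6 lists of 70 genes, of which 65 were measured. None passed the adjusted p, and 36 were above 0 and 29 below, with a median of 0.01. The catenins that link classical cadherins to actin were at 0.03 for *Ctnnb1*, 0.06 for *Ctnna1* and -0.02 for *Ctnnd1*. *Ctnna2*, the neuronal alpha-catenin, read 8.67, 8.81 and 8.93 in *Ezh2* cko samples, against 7.96, 8.27 and 8.48 in controls (difference 0.56, adjusted p = 0.254). The groups did not overlap. The order of the arrays within each group was also that of the neuron markers, which held for *Ret* below as well. The part of neurons in these differences was not tested. Of the other junction partners, *Ctnna3* was at -0.20 and *Jup*, which encodes plakoglobin, at 0.15.

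Among proteases that cut cadherins, *Mmp14* was at 0.32 (adjusted p = 0.576), *Psen2* at 0.19 and *Mmp2* at 0.17. Among large and atypical members of the superfamily, *Ret*, a receptor kinase with cadherin repeats, was at 0.89 (adjusted p = 0.302), the one partner gene past the threshold of the methods. It read 7.79, 8.09 and 8.51 in *Ezh2* cko samples, against 6.83, 7.27 and 7.63 in controls. *Dsc2*, a desmosomal cadherin, was at 0.34 and *Clstn3*, a calsyntenin of synapses, at 0.25.

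The repressors of *Cdh1* and related transition factors had 4 of 7 genes above 0, with *Snai2* at 0.45 (adjusted p = 0.572), *Zeb2* at -0.25 and *Twist1* at 0.20. Of 10 regulators of clustered protocadherin choice, which include the boundary factor CTCF and cohesin, 6 were below 0, with *Dnmt3b* at -0.14, *Wiz* at -0.14 and *Dnmt1* at -0.11. Of 7 cytoplasmic partners of delta protocadherins, *Abi1* was at 0.16, *Cyfip2* at 0.14 and *Wasf1* at -0.14.

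Markers of cell types also varied between the arrays. The neuron markers, 19 genes of which 18 were higher on average in *Ezh2* cko samples and 0 passed the adjusted p, had median deviations from the mean over all arrays of -0.07, 0.16 and 0.42 in *Ezh2* cko samples, against -0.45, -0.05 and -0.01 in controls. The 8 midbrain markers had mean signals between 9.29 and 9.48 in *Ezh2* cko samples and between 9.04 and 9.13 in controls. Of these, 7 were higher on average, 4 of them without overlap, and 0 passed the adjusted p. They did not move evenly: *Wnt1* was at 0.90, *Lmx1b* at 0.57 and *En1* at 0.37, but *Otx2* at 0.09, *Pax7* at 0.06 and *Pax5* at -0.25. The 10 neural progenitor markers had mean signals from 11.04 to 11.19 in *Ezh2* cko samples and from 10.99 to 11.10 in controls, and every marker of neurons and progenitors was above the array's median. Of 7 neural crest markers 5 were higher on average, 3 of them without overlap, and 0 passed the adjusted p. Their mean signals ran from 7.57 to 7.76 in *Ezh2* cko samples and from 7.42 to 7.47 in controls. Macrophage markers were higher on average in 12 of 12 and epithelial markers in 8 of 12 genes, with 0 and 1 past the adjusted p. The macrophage markers had median deviations of 0.14, 0.0050 and 0.21 in *Ezh2* cko samples, against -0.45, -0.08 and 0.11 in controls. Control 1 was far below the other arrays, and the groups overlapped. In whole tissue, a change in the number of cells of a type and a change in RNA per cell cannot be told apart. The part of these markers in the differences of the members and of their partner genes was not tested.

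**Figure D5:**
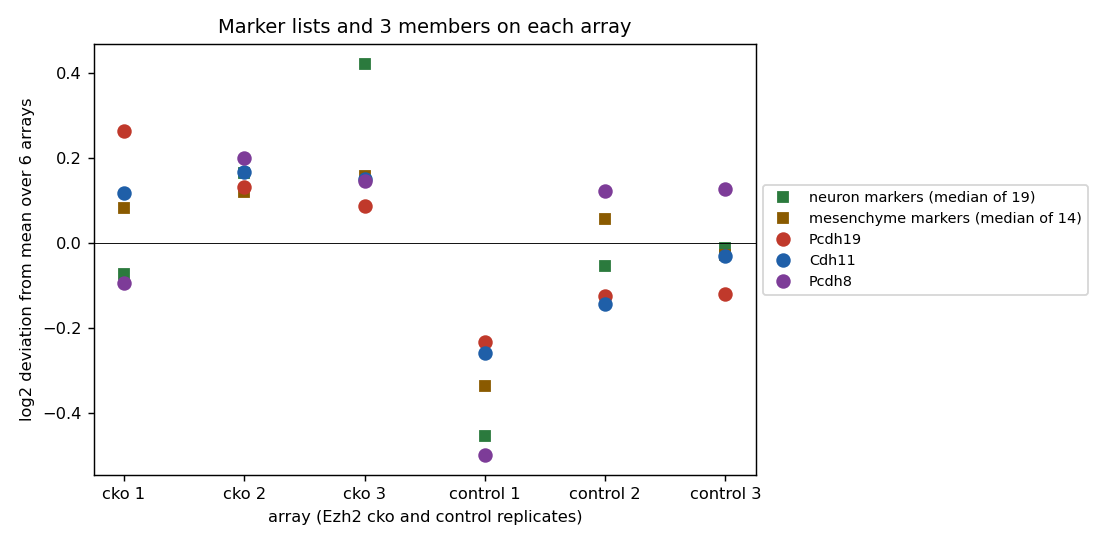
Deviation from the mean over 6 arrays, in log2 units, of the median of 19 neuron markers and of 14 mesenchyme markers (squares) and of 3 members (circles), on each *Ezh2* cko and control array. Control 1 is lowest for both marker lists and for all 3 members.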

How the data were processed

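Total RNA of dorsal midbrain was hybridized to Affymetrix A430 arrays, 1 per sample. The authors deposited log2 signals made with RMA, a method that subtracts background, equalises the distributions of the arrays and joins the probes of a set (version not given in the sources used here). Array signals carry no depth, and the number of arrays limits the precision.

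The 64 manufacturer control sets were left out, and 45037 probe sets were fitted with limma 3.58.1 (lmFit and eBayes, default prior) in R 4.3.3, *Ezh2* cko minus control. Of these, 34945 have 1 symbol, 932 several and 9160 none, and 34741 of the first matched a current symbol. The threshold of the methods asks for 1.75-fold either way and p up to 0.01 before adjustment. The paper gives 3 dissected midbrains per group. Because no source ties an array to a litter or a control genotype, p-values measure only the spread between these samples. The members and lists were chosen with earlier results of these data known. Genes were named by role, by passing a threshold, or as the 6 largest differences in each class, and 3 in each partner list. The procedure was tested on simulated data.

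Alternatives were the methods' t-test, a trended robust prior, weighting of arrays, removal of dim probe sets, 3 other normalizations, removal of cross-hybridising probe sets, the replicate number as a block, each array left out and the mean of a gene's probe sets.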

Additional observations from a re-analysis of the deposited data

How the results depend on the processing

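No member passed the adjusted p or the threshold of the methods under any alternative run, and the smallest adjusted p of a member was 0.0848, for *Pcdh19* as the mean of its probe sets. In that alternative the adjustment ran over genes rather than probe sets, and 98 genes passed, against 55 in the main fit. With the methods' t-test the smallest was 0.578, and with a trended and robust prior 0.181, for *Cdh11*. Of the 23 named members, 15 kept 1 direction in every alternative run for them, which was 16 for 12 of the 23 members and 15 for the 11 that the filter on dim probe sets removes. The median of the clustered protocadherins (-0.05) was -0.0256 with array weights, -0.0217 with quantile normalization again and -0.0221 with cyclic loess, and -0.0542 to -0.0032 with each array left out. The median of the cadherins (0.01) was 0.11 over the 12 that a filter on dim probe sets keeps, and -0.0444 to 0.0504 with each array left out. That filter leaves no clustered member.

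Members without overlap numbered 4 to 8 higher and 6 to 10 lower with an array left out, where 10.9% to 13.3% and 11.7% to 18.1% of all genes did not overlap. This alternative was chosen after seeing the data. Directions turned only when an array was left out, with ranges of -0.0027 to 0.21 for *Cdh5*, -0.21 to 0.0039 for *Cdh8*, -0.0412 to 0.27 for *Pcdh8*, -0.0229 to 0.0847 for *Pcdh18*, -0.12 to 0.0469 for *Pcdh10* and -0.15 to 0.0299 for *Pcdh15*. The ranges were -0.0795 to 0.20 for *Pcdhgc4* and -0.19 to 0.0703 for *Pcdhb2*. The cause was not tested.

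Replicate numbers share only a number: deviations of same-numbered arrays correlated at 0.06, -0.20 and 0.06. With the replicate block, 40 genes passed the adjusted p, against 55 without it, and 0 members did (smallest adjusted p 0.441).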
